A study of Mus musculus with 2 samples.

Results

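Remote intergenic DNase I hypersensitive sites were examined: accessible sites in the DNase-seq library of replicate 2 that lie outside every protein-coding gene and more than 50 kb from the nearest protein-coding transcription start. A peak of the shorter, stricter of the 2 peak lists of replicate 2 was taken as remote when it touched no protein-coding gene body of GENCODE M21 basic (mouse build mm10) and its nearest edge was over 50 kb from any start of such a gene. The rule used positions only, and it selected 3084 of 38223 peaks (8.07%). DNase-seq maps open chromatin by sequencing the ends left where the enzyme DNase I cuts. The series holds 1 group of 2 libraries, biological replicates 2 and 3 (each technical replicate 1), both of CD8-positive naive resting alpha-beta T cells from male adult mice of 2 months of the strain B6CASTF1/J, an F1 hybrid of C57BL/6 and CAST mice. The labels give both libraries the same donor entry and different biosample entries, so spread between them may be partly technical, and there is no second condition to compare. How many animals were pooled was not given in the sources used here.

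Open chromatin far from promoters marks candidate enhancers, silencers and insulators, which can act on genes through looping of the chromatin fibre. CTCF is a zinc finger protein that binds DNA at insulators and at the anchors of such loops, and RUNX proteins are transcription factors that bind enhancers in T cells, with Runx3 acting in the CD8 lineage. A footprint is a short stretch inside an accessible site that is cut less than its surroundings, as happens where a bound protein shields the DNA. In a bulk library, more cells with an open site and a more open site in each cell cannot be told apart.

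Reference sequences of 9 sites show the kinds of site that the results below turn on. Coordinates are on mm10, the strand is the plus strand, and the letters are those of the C57BL/6 reference, not of the CAST allele. Among sites of at most 300 bp that could be printed, the strongest 3 that held the CTCF consensus inside a footprint of both libraries, with at most 50% of their sequence repeated in the genome, are printed with the consensus match in capitals. They lay at chr7:73618421-73618660, chr17:84114021-84114200 and chr3:103383281-103383460, and the match was on the minus, plus and minus strand in that order.
Chd2-Fam174b site: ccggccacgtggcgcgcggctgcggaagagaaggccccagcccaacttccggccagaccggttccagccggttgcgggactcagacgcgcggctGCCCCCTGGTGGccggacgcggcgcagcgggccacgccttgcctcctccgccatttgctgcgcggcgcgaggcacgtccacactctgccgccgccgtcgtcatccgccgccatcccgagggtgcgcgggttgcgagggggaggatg
Haao-Zfp36l2 site: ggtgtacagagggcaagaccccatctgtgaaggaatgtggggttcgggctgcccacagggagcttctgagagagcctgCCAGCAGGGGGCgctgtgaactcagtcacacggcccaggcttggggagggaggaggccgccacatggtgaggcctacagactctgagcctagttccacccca
Trim33-Syt6 site: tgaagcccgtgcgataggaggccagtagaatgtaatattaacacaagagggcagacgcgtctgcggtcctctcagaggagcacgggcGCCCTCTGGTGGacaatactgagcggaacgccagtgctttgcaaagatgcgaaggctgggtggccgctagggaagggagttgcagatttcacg
The strongest 3 sites without a CTCF match that touched no annotated gene and met the same limit on repeats follow with the footprints of replicate 2 in capitals. They lay at chr1:102628161-102628340, chr15:85634461-85634680 and chr1:122357141-122357300. The limit on repeats counts exact stretches of 31 bases only. At 90% identity or more, the Cntnap5b-Cdh20 site had 8 other placements in the genome, the Ddx18-Dpp10 site 4 and the Wnt7b-Ppara site 0. Similarity to ribosomal DNA was not searched.
Cntnap5b-Cdh20 site: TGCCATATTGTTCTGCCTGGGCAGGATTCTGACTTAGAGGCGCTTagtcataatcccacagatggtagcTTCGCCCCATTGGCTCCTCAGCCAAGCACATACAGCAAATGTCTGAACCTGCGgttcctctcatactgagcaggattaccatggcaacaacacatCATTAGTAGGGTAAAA
Wnt7b-Ppara site: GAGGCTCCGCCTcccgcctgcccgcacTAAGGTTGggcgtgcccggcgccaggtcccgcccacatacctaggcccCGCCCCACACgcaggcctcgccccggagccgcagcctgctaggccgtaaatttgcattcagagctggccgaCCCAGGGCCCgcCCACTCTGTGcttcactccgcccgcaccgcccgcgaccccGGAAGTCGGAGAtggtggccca
Ddx18-Dpp10 site: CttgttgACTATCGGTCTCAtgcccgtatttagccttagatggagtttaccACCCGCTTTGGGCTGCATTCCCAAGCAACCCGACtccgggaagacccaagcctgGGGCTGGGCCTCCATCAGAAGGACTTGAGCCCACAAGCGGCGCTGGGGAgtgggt
The strongest site of all, at chr17:39846781-39846900, is printed without capitals because every stretch of 31 bases in it occurs more than once in the genome.
Esp15-Esp38 site: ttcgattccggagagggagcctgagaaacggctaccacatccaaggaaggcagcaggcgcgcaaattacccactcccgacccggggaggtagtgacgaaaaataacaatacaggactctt
The last pair were chosen after their values were seen, for their absence from the peak lists of replicate 3. They are the strongest such mostly single-copy sites that held the RUNX motif TGTGGT and were in neither list. The motif, or its complement ACCACA on the printed strand, is in capitals. They lay at chr17:52162601-52162900 and chr10:19184921-19185220.
Satb1-Kcnh8 site: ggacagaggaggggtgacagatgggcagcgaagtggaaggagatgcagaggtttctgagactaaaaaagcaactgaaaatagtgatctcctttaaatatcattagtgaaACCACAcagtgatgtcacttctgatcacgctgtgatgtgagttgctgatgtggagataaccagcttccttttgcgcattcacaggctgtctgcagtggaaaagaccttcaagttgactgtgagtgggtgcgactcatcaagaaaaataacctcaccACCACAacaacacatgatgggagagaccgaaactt
Tnfaip3-Olig3 site: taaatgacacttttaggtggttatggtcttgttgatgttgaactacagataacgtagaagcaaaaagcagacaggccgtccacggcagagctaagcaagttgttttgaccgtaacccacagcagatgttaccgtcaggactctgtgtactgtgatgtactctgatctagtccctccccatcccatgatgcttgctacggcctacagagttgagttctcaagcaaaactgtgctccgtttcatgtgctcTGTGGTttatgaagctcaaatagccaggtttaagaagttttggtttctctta

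The libraries differed in the number of peaks. The shorter list held 38223 peaks in replicate 2 and 17061 in replicate 3, and the longer list held 53597 and 24844. Peak signal below 2 came in whole multiples of 1 step, within 0.05 of a step, in both libraries (25650 of 25650 and 4539 of 4539 values), and the step of replicate 3 was 6.05 times that of replicate 2. How the authors scaled the signal was not given in the sources used here, so this ratio gives their relative depth only if both were scaled to the same total, and read totals were not analysed here. Levels were compared within a library, and only ranks and presence between them. Promoter peaks of replicate 2 stood at 5 of 5 T cell markers, 2 of 3 CD8 markers (Cd8b1 and Runx3), 3 of 5 naive markers and 0 of 2 CD4, 0 of 6 B cell and 0 of 3 erythroid markers. They also stood at 2 of 5 myeloid markers (Itgam and Cd68) and at 1 of 3 NK markers (Klrd1), and the part of other cells in the remote sites was not tested. In replicate 3 the counts were 1 of 5, 2 of 3 and 0 of 5 for T cell, CD8 and naive markers and 0 for every other class.

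Remote sites were sparse and weak. The territory that satisfied the rule spanned 1083 Mb, 40.9% of the genome, and held 2.85 sites per Mb, against 14.9 in intergenic DNA within 50 kb of a start, 11.2 in gene bodies and 304 in promoter windows of 1 kb on either side of a start. The median distance to a start was 94.7 kb (quartiles 66.5 and 165 kb, maximum 2140 kb). Widths ran from 22 to 900 bp with a median of 180 bp. Signal, the authors' value per peak, ran from 0.0970 to 164 with a median of 0.865 (quartiles 0.589 and 1.45). The median was 1.17 for near intergenic peaks, 0.992 for intronic peaks and 2.08 for promoter peaks. Autosomes carried 3.19 remote sites per Mb of remote territory, from 2.42 on chromosome 4 to 4.74 on chromosome 17, against 1.30 on the X chromosome and 0.0974 on the Y. Just inside the threshold lay sites 50.004 kb from Srsf5 (signal 1.16), 50.009 kb from Lrrc8d (2.65) and 50.019 kb from Cyld (1.99). Just outside it lay sites 49.990 kb from Ddx3x (2.17), 49.988 kb from Atf7ip (1.37) and 49.978 kb from Tmem92 (1.08).

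Of the 3084 remote sites, 874 overlapped a peak of the shorter list of replicate 3 by at least 1 bp (28.3%, Wilson 95% interval 26.8 to 30.0, which covers counting error only), against 42.5% of all peaks. The longer list of replicate 3 held 1466 (47.5%, against 58.7% of all peaks). Another 1518 sites (49.2%) had neither a peak there nor a position in that library's table of false discovery rates up to 0.05. Such a position was found in 50.6% of remote sites, against 61.5% of all peaks. Presence followed signal. The median signal in replicate 2 was 1.78 for the sites present in the shorter list and 0.709 for the rest, and of the 58 remote sites in the top decile of all peaks by signal 1 was absent. At like signal, remote sites were found more often than near intergenic, intronic and exonic peaks and about as often as promoter peaks. With the shares that each class had in each signal decile, weighted to the signal of the remote sites, 24.1% of near intergenic, 22.9% of intronic, 22.4% of exonic and 29.0% of promoter peaks would be present, against the 28.3% observed. The remote share was above the near intergenic share in 8 of the 10 signal deciles, and below it in the lowest and the ninth. In the sixth, as an example, 150 of 307 remote sites were present (48.9%), against 35.8% of near intergenic and 34.2% of intronic peaks. Peaks of 1 library are not replicates, so these shares describe this pair of libraries. Over the 874 shared sites the signal ranks of the libraries followed each other (Spearman rho 0.849), a description across sites that share their sequence and copy number.

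**Figure D1:**
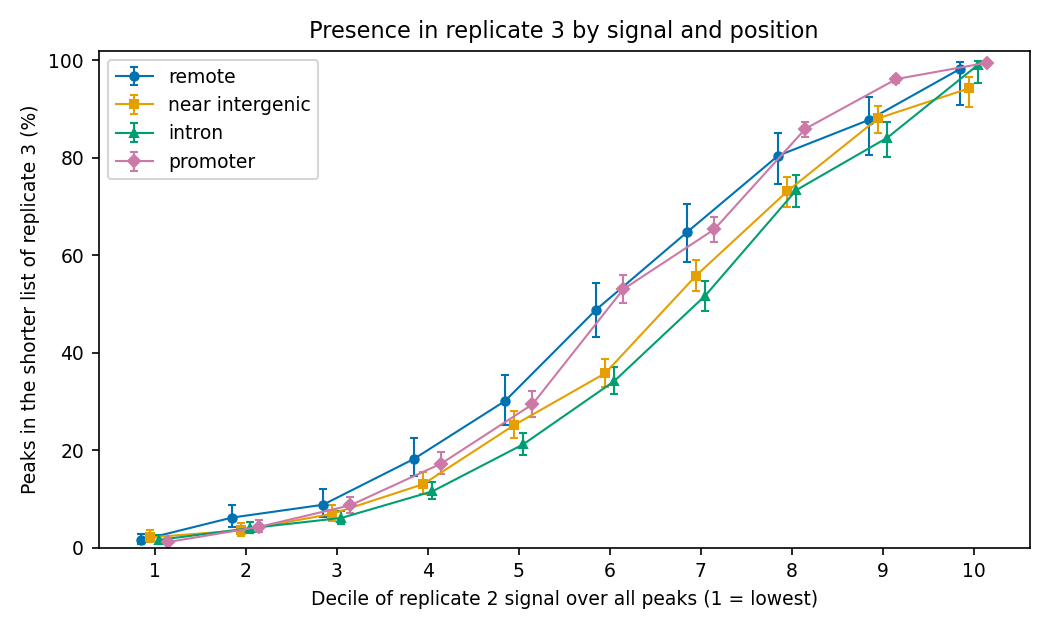
Share of peaks of replicate 2 that overlap the shorter list of replicate 3 (vertical axis, %) in each decile of replicate 2 signal (horizontal axis), for 4 position classes. Points are shares and bars are Wilson 95% intervals for counting error. In the sixth decile the remote share is 48.9% and the near intergenic share 35.8%.

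The overlap was also taken from the side of replicate 3. Replicate 3 had 892 remote peaks of 17061 (5.23%), and 877 of them (98.3%, 97.2 to 99.0) overlapped a peak of the shorter list of replicate 2, against 95.7% of all its peaks. Of the other 15, 9 were also missing from the longer list of replicate 2. The number of remote sites per library was 1988 ± 1550 (SD, n = 2). When replicate 2 was cut to its 17061 strongest peaks, 783 of them (4.59%) were remote.

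Signal and presence were lower at greater distance. The 1643 sites at 50 to 100 kb had a median signal of 0.933 and 32.1% were present in the shorter list of replicate 3. The 889 sites at 100 to 200 kb had a median of 0.821 with 26.1% present, the 463 sites at 200 to 500 kb a median of 0.791 with 22.7% present, and the 89 sites beyond 500 kb a median of 0.589 with 10.1% present. The share that the other remote sites of the same signal would give was 30.0%, 26.0%, 25.8% and 12.7% in that order, so most of the decline accompanied the lower signal. Of the 89 farthest sites, 41 lay inside antigen receptor loci, and of the 48 outside them 7 were present (14.6%, 7.25 to 27.2).

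**Figure D2:**
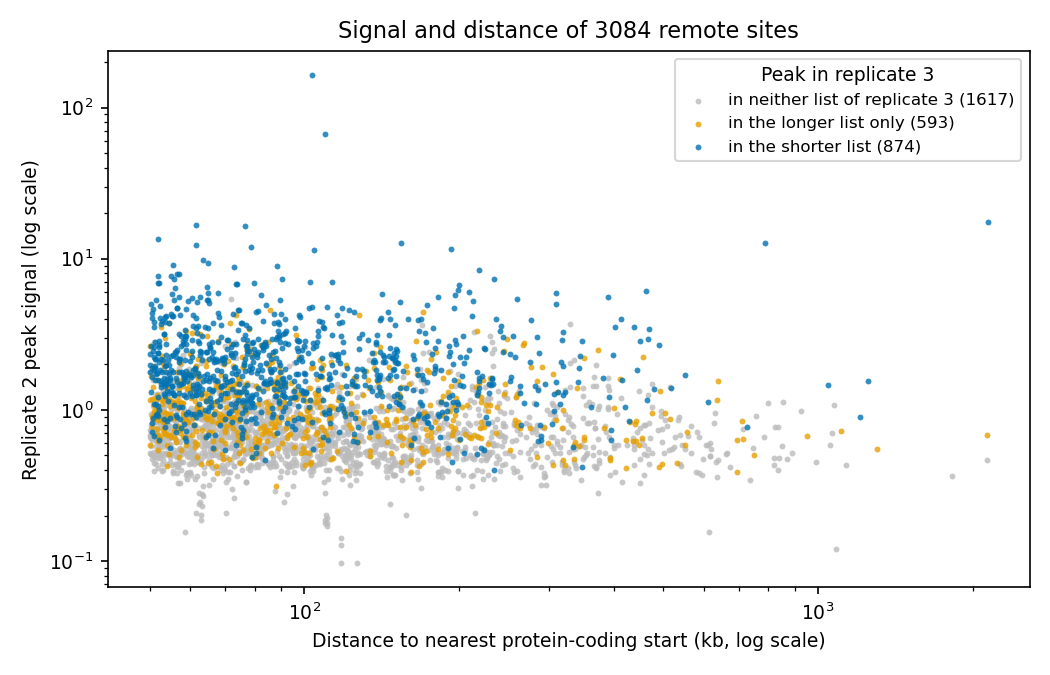
Signal in replicate 2 (vertical axis, log scale) against distance to the nearest protein-coding start (horizontal axis, kb, log scale) for the 3084 remote sites. Each point is a site, coloured by its presence in the peak lists of replicate 3: 874 are in the shorter list, 593 in the longer list only and 1617 in neither, and the sites in neither list are mostly low, with exceptions up to 5.45.

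The strongest remote sites were often sequence that the genome holds in copies. All 12 sites of highest signal were present in replicate 3, and 4 of them had over 50% of their 31-base words repeated in the genome. The top site, between the exocrine-gland peptide genes Esp15 and Esp38, reached 164 in replicate 2 and 123 in replicate 3. It lay inside Rn18s-rs5, which RefSeq annotates as a pseudogene related to 18S ribosomal RNA, at chr17:39846354-39848202, and 100% of its words were repeated. The next, chr3:5860361-5860530 between Gm8797 and 1700008P02Rik, had signals of 66.6 and 51.1, and its words occurred a median of 7 times. At 90% identity or more over at least 50% of its length, this sequence had 19 other placements in the assembly. The Cntnap5b-Cdh20 site was the farthest of all from a start, 2140 kb from Cdh20, which encodes a cadherin. It had signals of 17.5 and 15.4, with 40.7% of its words repeated and 8 other placements, the best at 95.8% identity. The Ddx18-Dpp10 site, 789 kb from a start, had signals of 12.8 and 10.5 and 4 other placements. The site at chr8:20424741-20424940, on a start of the pseudogene 2610005L07Rik, held a CTCF match and had signals of 16.6 and 20.8, with 81.8% of its words repeated and 6 other placements. The part of reads from other copies in these signals was not tested, and similarity of the sites to ribosomal DNA was not searched.

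Other strong sites had 0 placements elsewhere by this measure. The Chd2-Fam174b site, next to the gene of the chromatin remodeller Chd2, had signals of 16.4 and 15.6, 4 footprints in each library and a CTCF match. The Wnt7b-Ppara site, 52.0 kb from the start of the Wnt ligand gene Wnt7b, had signals of 13.4 and 11.9. The site between Mrtfb and Parn at chr16:13437181-13437400 had signals of 11.9 and 9.21. Some strong sites marked starts of genes that the rule did not count. The site at chr13:107890041-107890400, between the kinesin gene Kif2a and Ndufaf2, had signals of 12.6 and 10.8 and lay on a start of Zswim6, which RefSeq lists as protein-coding and GENCODE M21 types here as a processed transcript. The site at chr3:123508321-123508480, with signals of 12.3 and 9.89, lay on a start of the noncoding host gene Snhg8. The site at chr15:68363241-68363520, with signals of 11.4 and 10.8, lay 65 bp from a start of the lncRNA gene Gm20732.

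Over all remote sites, 228 (7.39%, against 5.11% of all peaks) had over 50% of their 31-base words repeated. Of these 68 were present in the shorter list of replicate 3 (29.8%, 24.3 to 36.1), a share like that of the 2847 other sites with a value (28.3%). No peak of replicate 2 matched the mitochondrial genome.

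Part of the sites lay in or near noncoding genes. In all 702 sites (22.8%) lay in the body of a gene that is not protein-coding, 611 of them in lncRNA genes, and 384 (12.5%) lay within 1 kb of the start of such a gene. The same shares over all peaks and over the remote territory were not computed, so these counts describe placement only. Those 384 start sites were counted as 246 at lncRNA, 51 at antigen receptor segment, 49 at pseudogene, 34 at small RNA, 26 at TEC (a class of unresolved GENCODE models) and 1 at rRNA genes, and a site could count for several. They were richer in CpG: 31.5% had a ratio of observed to expected CpG of at least 0.6, against 12.2% of sites with no such start. Of the 384, 132 were present in replicate 3 (34.4%, 29.8 to 39.3), and 34.7% would be at the shares of other remote sites of like signal. The remaining 2264 sites (73.4%) had no annotated gene and no start within 1 kb.

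Sites with the CTCF consensus were found in the other library more often than signal alone would give. The consensus, searched on both strands, was held by 418 remote sites (13.6%, 12.4 to 14.8, against 9.82% of all peaks). Near intergenic peaks held it in 18.4%, intronic peaks in 14.7% and promoter peaks in 1.52%. In 386 of the 418 sites (92.3%, against 94.8% of the other peaks with a match) the match overlapped a footprint of replicate 2, and in 58 it overlapped a footprint of both libraries. The midpoint of 84.3% of the 420 matches lay inside a footprint of replicate 2, while footprints covered 15.4% of the bases of remote sites. Of the 418 sites, 181 were present in the shorter list of replicate 3 (43.3%, 38.6 to 48.1). Sites without the consensus at like signal would give 29.1%. The same order was seen in near intergenic (49.1% against 36.2%), intronic (46.5% against 29.5%) and exonic peaks (52.4% against 39.1%), and the opposite in promoter peaks (66.3% against 68.1%). The longer list held 66.03%, against 48.9% at like signal. Of the printed sites, which were chosen for a footprint at the match in both libraries, the Haao-Zfp36l2 site had signals of 6.77 in replicate 2 and 6.78 in replicate 3, and the Trim33-Syt6 site 4.77 and 4.65.

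Sites with a RUNX motif were found less often. The motif TGTGGT was in 776 remote sites (25.2%, 23.7 to 26.7, against 17.4% of all peaks), with 24.5% of intronic, 21.3% of near intergenic and 9.86% of promoter peaks. Of the 776, 177 were present in the shorter list of replicate 3 (22.8%, 19.995 to 25.9), although their median signal, 0.918, was above the 0.843 of sites without it. At like signal, sites without the motif would give 33.7%. Leaving out sites with a CTCF match, 158 of 730 were present (21.6%, 18.8 to 24.8), against 31.7% at like signal. In the longer list, 293 of those 730 were present (40.1%, 36.6 to 43.7), against 51.8% at like signal. In each of the 10 signal deciles the share of these 730 sites in the shorter list was below that of sites with neither motif. In the other position classes, too, the share was below that given by signal. Intronic RUNX peaks were present in 22.2%, against 30.5% at like signal, and near intergenic ones in 30.2%, against 35.0%, with exonic peaks at 23.7% against 33.5% and promoter peaks at 55.5% against 60.1%. In the seventh signal decile, 38 of 80 remote RUNX sites without CTCF were present (47.5%, 36.9 to 58.3) and 97 of 134 sites with neither motif (72.4%, 64.3 to 79.3). The match midpoint lay in a footprint for 20.2% of 960 RUNX matches (17.8 to 22.9), above the 15.4% of bases that footprints cover and far below the share of CTCF matches.

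**Figure D3:**
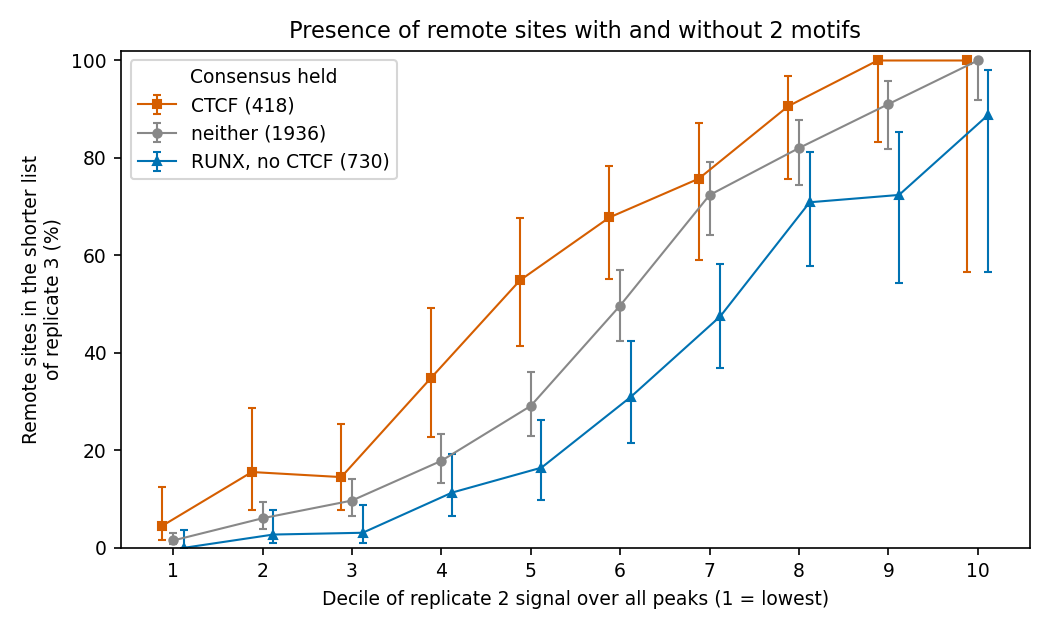
Share of remote sites in the shorter list of replicate 3 (vertical axis, %) in each decile of replicate 2 signal (horizontal axis), for sites with a CTCF match (418), with RUNX and no CTCF match (730) and with neither (1936). Points are shares and bars are Wilson 95% intervals for counting error. In the seventh decile the shares are 75.8%, 47.5% and 72.4%.

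The Satb1-Kcnh8 and Tnfaip3-Olig3 sites printed above were the strongest RUNX sites of their kind in neither list of replicate 3, and they are not typical of sites as strong. In the ninth signal decile, 21 of 29 RUNX sites without CTCF were present, and in the top decile 8 of 9. The Satb1-Kcnh8 site did hold a position in the replicate 3 table of false discovery rates up to 0.05 (lowest 0.0288). The Tnfaip3-Olig3 site held no such position. Neither printed site held a repeated word. The Satb1-Kcnh8 site had a signal of 3.69 and 3 footprints in replicate 2, and the Tnfaip3-Olig3 site 3.66 and 7 footprints. Of the 13 other motifs, most stayed near the share given by signal. The motif of GATA factors, with the letters AGATAA, was in 6.87% of remote sites, against 4.86% of all peaks. Sites with it were present in 24.1% (18.8 to 30.2), against 31.7% at like signal. KLF/SP (CCCCGCCC), which was in 27.2% of promoter peaks, was in 4.02% of remote sites (against 13.8% of all peaks) and present in 54.8% against 48.6%. AP-1 (TGANTCA) was in 7.17% of remote sites and 5.04% of all peaks, and was present in 31.7% against 31.4%. TCF/LEF (CTTTGAT), the motif of the factors Tcf7 and Lef1, was in 4.05% and 2.69%, and was present in 31.2% against 32.1%. Some of these motifs overlap each other, and a match describes the reference sequence, not binding.

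Most remote sites held a footprint in replicate 2. There, 2780 sites (90.1%, 89.0 to 91.1, against 87.6% of all peaks) overlapped at least 1 footprint. The median was 2 per site, the maximum 15 and the median footprint width 9 bp. In all there were 7560 overlaps of a site with a footprint. Some peaks of the list overlap each other, so a footprint could count for more than 1 site. At the signal of remote sites the share would be 90.04% for near intergenic, 89.3% for intronic and 64.0% for promoter peaks. The 304 sites without a footprint had a median signal of 0.492 and 11 of them were present in replicate 3. In replicate 3, 517 sites (16.8%, against 34.2% of all peaks) overlapped a footprint. Among the 874 sites present there, 465 had one (53.2%), against 75.1% of the other peaks present. Footprint positions held up to the same extent as elsewhere: of 903 footprints of replicate 3 in remote sites, 607 overlapped a footprint of replicate 2 (67.2%), against 67.6% in other peaks.

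Antigen receptor loci, where V, D and J segments are joined in lymphocytes, counted as remote because their segments are not typed as protein-coding. They held 73 sites: 38 in Igh, 28 in Tra/Trd, 5 in Trb, 2 in Igk and 0 in Igl and Trg. Of the 38 Igh sites, 30 lay at a segment start, 36 held a footprint, 15 held the CTCF consensus and 19 had mostly repeated sequence. Their signal ran from 0.343 to 3.55 with a median of 0.649, and 5 were present in replicate 3, where 5.95 would be at like signal. Igh encodes the antibody heavy chain of B cells. The 6 B cell markers had no promoter peak in either library, but replicate 3 had one at only 1 of 5 T cell and 0 of 5 naive markers. The part of B cells in these sites was not tested. The strongest Igh site, chr12:113981721-113981900, 441 bp from the start of Ighv11-1, had signals of 3.55 and 5.15, and the next, 446 bp from that of Ighv4-2, 3.42 and 4.74. The 28 sites of Tra/Trd, the T cell receptor alpha and delta locus, ran from 0.358 to 2.88 with a median of 0.582. Of these, 24 were mostly repeated sequence and 4 were present in replicate 3, against 4.04 at like signal. In Trb, the beta locus, a site 370 bp from the start of Trbv12-1 had signals of 2.91 and 3.88. A site 391 bp from that of Trbv12-2 had signals of 2.68 and 2.67. Neither held a repeated 31-base word, and less exact copies of them were not searched for.

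Remote sites were spread over many intervals between genes, with local groups. In all 1464 sites (47.5%) lay within 10 kb of another remote site and 677 (21.95%) within 1 kb, and 63 were counted as abutting another. Some peaks of the list also overlap each other, so part of the count within 1 kb can be pieces of 1 accessible site. The same shares over all peaks were not computed, so these counts describe placement only. The 3084 sites fell in 1151 intervals, with a median of 2 per interval. Of these 525 held 1 site and 36 held at least 10, and the latter held 514 sites (16.7%). The 8 fullest intervals held 182 sites, and the top pair were the Igh and Tra/Trd loci. The third, between Pced1b and Rpap3, which encodes a cochaperone of RNA polymerase assembly, packed 25 sites into 158 kb. Their median signal was 0.679, and 2 were present in replicate 3 where 5.77 would be at like signal. The interval beside Foxo1, a factor that maintains naive T cells, held 22 sites up to Cog6 with a median signal of 1.52, no CTCF match, and 4 present against 9.86. The desert from Id2, an inhibitor of E proteins, to Rnf144a held 18 sites, 4 present against 4.41. Between Kif2a and Ndufaf2, 9 of 17 were present against 6.32, the group that holds the Zswim6 start. Between Mtx2 and Hnrnpa3, where 5 of 17 sites held CTCF, 4 were present against 5.64. Between Tbc1d1 and Klf3, a Krüppel-like factor gene, 7 of 17 were present against 7.43.

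**Figure D4:**
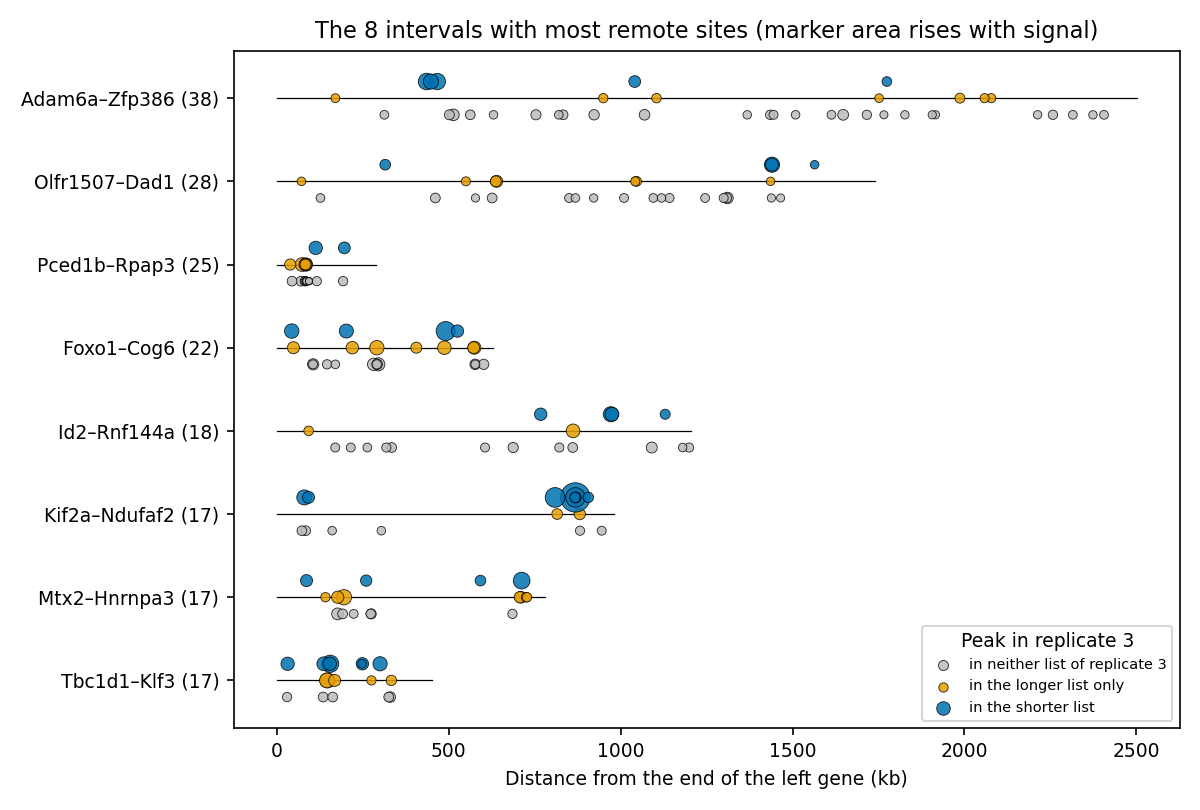
Positions of the sites in the 8 intervals with most remote sites (rows, number of sites in parentheses), as distance from the end of the left gene (horizontal axis, kb). Each marker is a site, its area rises with signal, and its colour and height within the row give presence in replicate 3. Overlapping markers hide some sites. The 25 sites of Pced1b-Rpap3 sit in 158 kb, and 2 of them are in the shorter list.

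Genes of T cell biology flanked many of the sites. The lists, 76 transcription factor genes and 85 receptor and signalling genes, were chosen with earlier results of these data known and describe placement only. Their genes flanked 446 remote sites (14.5%), while intervals they flank make up 3.84% of the remote territory: 10.7 sites per Mb against 2.85 for all. The transcription factor list accounted for 299 sites at 42 genes and the signalling list for 147 at 25 genes. By contrast, 106 developmental regulators of other tissues flanked 109 sites, 1.84 per Mb, and genes with Gm symbols flanked 188 sites, 1.13 per Mb. A density above the 2.85 for all remote sites was also seen beside other gene families. Olfr genes, which encode odorant receptors, flanked 49 sites at 9.57 per Mb, but 28 of these lay between Olfr1507 and Dad1. All 28 were in the Tra/Trd locus. Zfp genes, which encode zinc finger proteins, flanked 174 sites at 6.34 per Mb, 38 of them in Igh beside Zfp386.

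Sites beside T cell genes were seen in replicate 3 less than their signal would give. Of the 446, 124 were present (27.8%, 23.8 to 32.1), and 33.7% would be at the shares of other remote sites of like signal. Their share was below that of the other remote sites in 8 of the 10 signal deciles, and above it in the lowest and in the fourth. In the longer list 47.8% were present, against 52.5% at like signal. In signal deciles 6 to 10, the longer list held 85.6% of 167 sites beside T cell genes and 86.3% of 775 other remote sites. The shorter list held 59.3% and 69.9% of them. Sites beside 1 gene are not independent of each other, so the counting intervals are too narrow for a comparison between genes. They also differed in motifs. CTCF was in 7.85% of the sites beside T cell genes and 14.5% of the others, and RUNX in 29.1% and 24.5%. Within the 446, 21 of 130 RUNX sites were present (16.2%, 10.8 to 23.4), where sites of the same group without the motif would give 37.6% at like signal. Without CTCF sites the share for the list was 25.3%, against 31.1% at like signal.

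Btg1, an antiproliferative gene linked to lymphocyte quiescence, flanked 30 sites, the most of any listed gene, with 7 present against 9.60 at like signal. Foxo1 flanked 25 counting both sides, 7 present against 11.1, and the growth regulator Myc flanked 23, 5 present against 4.41. Ets1, a founding ETS factor, flanked 17 with 4 present against 8.03, and Satb1, a chromatin organiser of T cells, flanked 15 with 2 present against 6.37. Rasgrp1, which couples the T cell receptor to Ras, flanked 13 with 1 present against 3.63. Tgfbr2, a receptor for TGF-beta, flanked 12 with 5 present against 5.76. S1pr1, the receptor that guides T cells out of lymph nodes, flanked 11 with 3 present against 5.51. Of the 15 listed genes with most sites, 14 from the T cell lists and 1 developmental regulator, all except Myc had fewer present than signal would give. Some of these gaps were small: Lef1 had 5 present against 5.02, Sall3 4 against 4.17 and Bach2 3 against 3.40. The 15 together had 62 present against 85.7. The last place was a tie of 6 genes with 10 sites each, of which Bcl2l11 was taken by alphabetical order, and 2 of the 6 had more present than signal would give. Over all 67 T cell genes with a site, 40 had fewer and 27 had more, with 126 present against 149, where a site between a pair of listed genes counts for both. The shortfall was thus no larger over the 67 than over the 15 with most sites. Intervals beside no listed gene went both ways. Between Tnfaip3 and Olig3, 2 of 15 sites were present against 8.01, and between Kif2a and Ndufaf2, 9 of 17 against 6.32. The strongest remote site in neither list of replicate 3 lay between S1pr1 and Dph5, 71.9 kb from the start of Dph5, at chr3:115815601-115815960, with a signal of 5.45 and 7 footprints in replicate 2. After it came the printed sites near Satb1 (3.69) and Tnfaip3 (3.66), which encodes the NF-kB inhibitor A20, and a site 214 kb from Ets1 at chr9:32910661-32911020 (3.25).

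**Figure D5:**
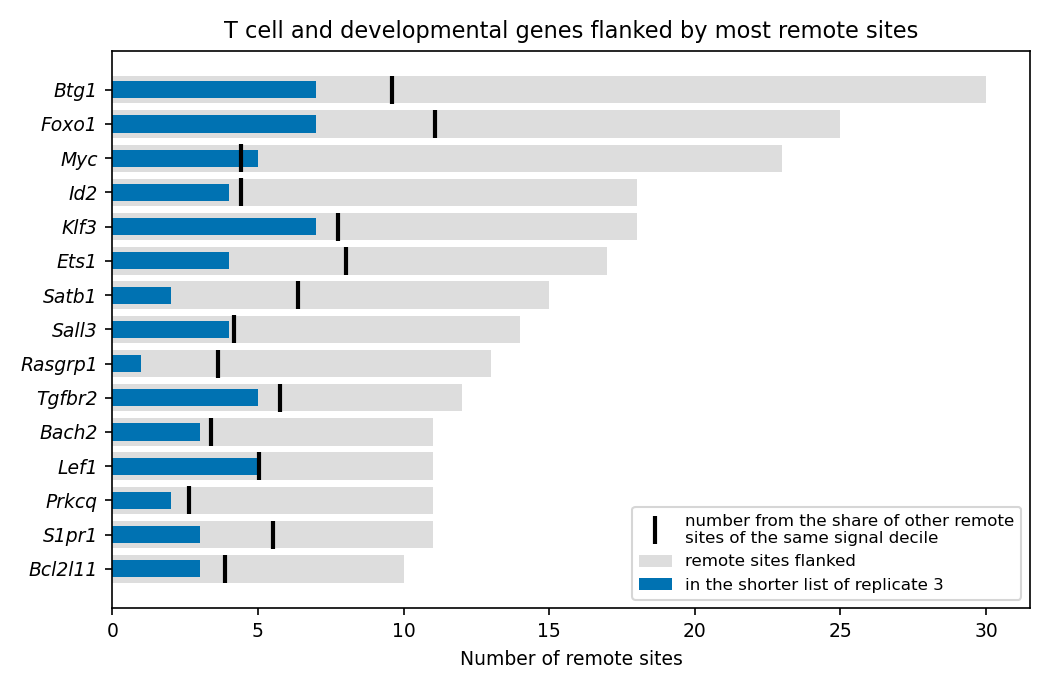
Number of remote sites (horizontal axis) for the 15 listed genes that flank most of them. Grey bars are all sites, blue bars those in the shorter list of replicate 3, and black ticks the number expected from other remote sites of the same signal decile. Ets1 has 4 present against 8.03, and Satb1 has 2 against 6.37.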

How the data were processed

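DNase-seq libraries of replicates 2 and 3 were read as deposited by the authors, on mm10. The authors deposited 2 peak lists, a table of false discovery rates (a q-value for each listed stretch) and footprint intervals for each library. Each file was derived from that library's own alignments, per the deposited notes, so replicates were not pooled. The signal of each peak is the authors' value, whose scaling was not given in the sources used here. No aligner, caller of peaks or caller of footprints is named in them either. The other deposited column, a constant in the footprint files, was not used.

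Python 3.11.15 with numpy 2.4.6, pandas 2.3.3, numba 0.67.0, pysam 0.24.0 and BLAST 2.17.0 was used. Peaks were classed against GENCODE M21 basic: promoter (within 1000 bp of a protein-coding start), exon, intron, near intergenic or remote. Presence meant an overlap of at least 1 bp. Shares carry Wilson 95% intervals. Comparisons at like signal used the share of the other sites in each decile of replicate 2 signal, taken over all 38223 peaks. Repeated sequence was counted in exact 31-base words over the genome, and mostly single-copy refers to this count. The code was tested on simulated data. Printed sequences are from the RefSeq copy of the mm10 genome, for sites of at most 300 bp and none from chromosome 18.

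No p-values were computed, since peaks of 1 library are not replicates. Members, lists and motifs were chosen with earlier results of these data known. Named sites were the 12 of highest signal, the 12 strongest that were shared, mostly single-copy and in no annotated gene, the 3 farthest, the 3 on either side of 50 kb, the 8 fullest intervals and the 15 listed genes with most sites. The 4 strongest sites in neither peak list of replicate 3 and 2 of the printed sequences were chosen after their values were seen. Alternatives tried were other distances, lists, overlaps and annotations.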

Additional observations from a re-analysis of the deposited data

How the results depend on the processing

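The number of remote sites depended on the rule: 5222 beyond 25 kb, 1441 beyond 100 kb, 5397 from the longer list of replicate 2, 641 when genes of every biotype counted and 892 without replicate 2. The share present in replicate 3 was 30.9% beyond 25 kb, 24.0% beyond 100 kb, 47.5% with the longer list of replicate 3, 23.1% with an overlap of 50% of each peak, 16.3% from the longer list of replicate 2 and, taken from replicate 3 instead (without replicate 2), 98.3%. The footprint share was 91.6% beyond 25 kb, 89.0% beyond 100 kb and 51.3% without replicate 2, where replicate 3 supplied sites and footprints. The CTCF share was 33.2% with 1 mismatch, 15.2% beyond 25 kb and 12.1% beyond 100 kb. The median signal was 0.925 beyond 25 kb and 0.791 beyond 100 kb. In the longer list of replicate 3, 47.8% of sites beside T cell genes and 66.03% of CTCF sites were present, and 40.1% of sites with RUNX and no CTCF match. The other 19 of 41 alternatives moved a value by less than its counting interval or, for a number of sites, by less than 1.5 times. Among them, requiring distance from RefSeq protein-coding genes too kept 2805 sites, and leaving out antigen receptor loci kept 3011. Alternatives on RefSeq, receptor loci, noncoding starts, T cell genes and presence of CTCF and RUNX sites were chosen after seeing the data. No paired analysis was possible because 1 group of 2 libraries gives no comparison between groups. Replicate 3 has fewer peaks, and at like signal some sites were present there and others not, so absence from its lists does not show that a site was closed; the part of depth in this was not tested.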
